A study of Mus musculus with 9 samples.

Results

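The 31 genes described here encode enzymes and regulators of cholesterol and fatty acid synthesis, and they were taken by symbol from the 54532 genes of the count table of mouse ST2 cells. By role they are 7 genes of the mevalonate part of the pathway (Hmgcs1, Mvk, Pmvk, Mvd, Idi1, Fdps and Ggps1), 3 of the squalene part (Fdft1, Sqle and Lss) and 8 that turn lanosterol into cholesterol (Cyp51, Tm7sf2, Msmo1, Nsdhl, Hsd17b7, Ebp, Sc5d and Dhcr7). A further 4 act in sterol sensing or carriage (Insig1, Srebf1, Srebf2 and Stard4), and 9 make or desaturate fatty acids (Acly, Acaca, Fasn, Scd1, Scd2, Elovl6, Acss2, Fads1 and Fads2). All 31 passed the filter on low counts, which kept 14004 genes for testing.

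ST2 is a wild-type mouse stromal cell line derived from bone marrow, labelled as a mesenchymal stem cell of bone. Poly-A RNA was sequenced from 9 libraries, 3 per group, after 72 h. The groups were vehicle, rhWnt3a (recombinant human Wnt3a, 50 ng/ml), and rhWnt3a together with OSMI, an inhibitor of the O-GlcNAc transferase OGT, at 20 µM. The titles and the study's account of the sequencing name both agents for the third group, whereas its treatment label and the methods name OSMI alone, and no group of OSMI alone was analysed here. The cells were grown in α-MEM, and the comparisons ask what Wnt stimulation changes and what blocking O-GlcNAcylation changes on top of it.

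The study describes its sequencing replicates as biological, whereas the labels give replicate numbers and do not say whether the libraries came from separate cultures, so p-values measure the spread between these libraries, part of which may be technical. Total counts ran from 16135898 to 17583945 per library. In CPM (counts relative to the library total after TMM scaling), Axin2, a direct Wnt target, had 0.244, 0.892 and 0.566 CPM in vehicle 1 to 3, 21.6, 16.8 and 18.8 in rhWnt3a 1 to 3 and 12.3, 10.6 and 17.3 in rhWnt3a with OSMI 1 to 3. All 6 libraries whose titles name rhWnt3a lay above all vehicle libraries for Axin2, and it was called higher with rhWnt3a (5.06 ± 0.35, adjusted p = 3.67e-05) and with rhWnt3a and OSMI (4.55 ± 0.35, adjusted p = 4.78e-05). Lef1, another Wnt target, had 0.428, 0.382 and 0.735 CPM in vehicle 1 to 3, 2.68, 2.22 and 2.75 in rhWnt3a 1 to 3 and 0.786, 0.574 and 1.63 in rhWnt3a with OSMI 1 to 3. It was called higher with rhWnt3a (2.28 ± 0.43, adjusted p = 0.00843) but not with rhWnt3a and OSMI, where the libraries overlapped vehicle (0.93 ± 0.46, adjusted p = 0.199). Notum, also a Wnt target, had 0.305, 0.191 and 0.452 CPM in vehicle 1 to 3, 1.46, 1.42 and 1.85 in rhWnt3a 1 to 3 and 0.363, 0.115 and 1.28 in rhWnt3a with OSMI 1 to 3, and edgeR with all libraries, the filter on low counts, TMM and no correction called it neither with rhWnt3a (2.28 ± 0.67, adjusted p = 0.0672) nor with rhWnt3a and OSMI (0.86 ± 0.73, adjusted p = 0.456). On the same libraries DESeq2 called Notum higher with rhWnt3a (2.30) and Lef1 lower in the OSMI group than with rhWnt3a (−1.34), and so did edgeR with no filter beyond 1 count (2.26 and −1.32). With a correction for gene length and GC edgeR did the same (2.34 and −1.56), and for Lef1 a correction for length alone was enough (−1.59). Without vehicle 3, rhWnt3a 2 and rhWnt3a with OSMI 3 together, Notum was called higher with rhWnt3a (2.66), and Axin2 (−0.83), Lef1 (−1.99) and Notum (−2.78) were called lower in the OSMI group than with rhWnt3a. The genes for the enzymes that add and remove O-GlcNAc, Ogt and Oga (listed as Mgea5), were called higher with rhWnt3a and OSMI than with vehicle, by 0.64 ± 0.17 (adjusted p = 0.0348) and 0.90 ± 0.15 (adjusted p = 0.00356), the first not without vehicle 1, vehicle 3, rhWnt3a 3, rhWnt3a with OSMI 1, rhWnt3a with OSMI 2 or rhWnt3a with OSMI 3 (log2 fold changes 0.52 to 0.74, adjusted p 0.0562 to 0.0843). Against rhWnt3a the Oga value in the OSMI group, 0.56 ± 0.15, was not called (adjusted p = 0.0661), but it was by DESeq2 (0.57) and without vehicle 3, rhWnt3a 2 and rhWnt3a with OSMI 3 together (0.52). The Ogt call was also lost with a correction for gene length (0.46) and without vehicle 3, rhWnt3a 2 and rhWnt3a with OSMI 3 together (0.39). Of 8 stromal markers 7 passed the filter, led by the collagen genes Col1a1 in vehicle (mean 10055 CPM) and Col1a2 with rhWnt3a (mean 8418 CPM) and with rhWnt3a and OSMI (mean 5649 CPM), and Thy1 had at most 4 counts in any library. Their sum was 25691, 27207 and 20607 CPM in vehicle 1 to 3, 20123, 17047 and 19979 in rhWnt3a 1 to 3 and 9428, 8553 and 16931 in rhWnt3a with OSMI 1 to 3. Cxcl12 and Vcam1 were called lower with rhWnt3a, Col3a1 and Vcam1 lower in the OSMI group than with rhWnt3a, and Col1a1, Col3a1, Cxcl12 and Vcam1 lower in the OSMI group than in vehicle. Between the treated groups Col3a1 was not called without rhWnt3a 1, rhWnt3a 2, rhWnt3a 3, rhWnt3a with OSMI 1 or rhWnt3a with OSMI 2 (log2 fold changes −1.99 to −1.67, adjusted p 0.0526 to 0.0799), nor Vcam1 without rhWnt3a with OSMI 2 (log2 fold change −0.89, adjusted p 0.0525), and against vehicle Col1a1 was not called without vehicle 1, vehicle 2, rhWnt3a with OSMI 1 or rhWnt3a with OSMI 2 (log2 fold changes −1.21 to −1.04, adjusted p 0.0857 to 0.102). In bulk RNA fewer cells of a type and less RNA per cell cannot be told apart. Endothelial markers were near 0, with none of 4 passing the filter and at most 14 counts, and of 6 macrophage markers only Cd14 passed, at up to 8.65 CPM, and it was called in no comparison by edgeR, by DESeq2 or at an unadjusted p under 0.05.

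In each group 1 library lay apart from the other 2. The chi-square of counts per degree of freedom, which counting error alone would put near 1, was 7.44 between vehicle 1 and 2, 2.95 between rhWnt3a 1 and 3, and 4.61 between rhWnt3a with OSMI 1 and 2. For the pairs that involve vehicle 3, rhWnt3a 2 or rhWnt3a with OSMI 3 it was 72.0 to 88.0. The libraries that lay apart also differed by gene length. In the fifth of tested genes with the longest gene lengths, the median log2 difference from the rest of the group was −0.35 in vehicle 3 and −0.39 in rhWnt3a 2, and 0.24 in rhWnt3a with OSMI 3. Short genes showed the opposite sign, as the plot by gene length shows. The members had a median length of 4866 bases, against 4039.5 for all tested genes, and Acaca with 17074, Fasn with 10947 and Lss with 10787 bases were the longest. With a correction for gene length, members called lower numbered 13 in place of 10 with rhWnt3a, 1 in place of 0 between the treated groups and 17 in place of 14 between the OSMI and vehicle groups. The share of all tested genes called lower rose as well, from 5.86% to 6.93%, from 3.05% to 4.98% and from 9.34% to 10.9%. What gives rise to the length pattern was not tested, and results are given below with and without these libraries. The 3 libraries were picked for their distance from their own groups. Leaving them out therefore narrows the spread between libraries by construction, and p-values and calls without them, above and below, understate that spread.

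**Figure D1:**
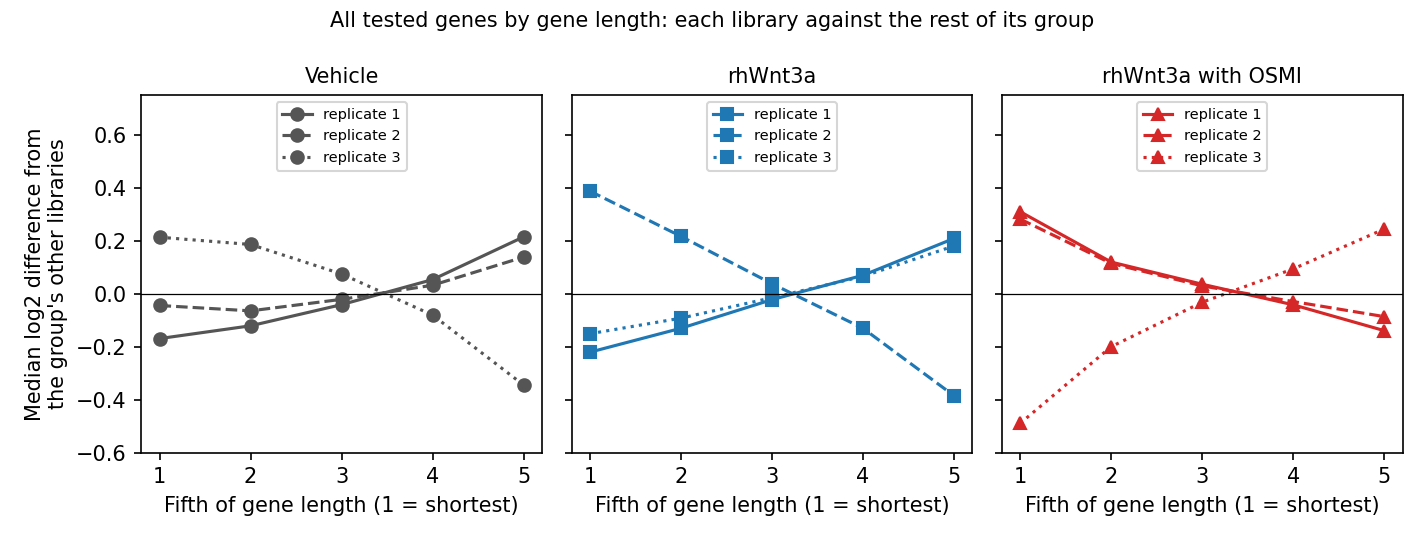
Median log2 difference of each library from the other libraries of its group (vertical axis), over the tested genes in 5 classes of gene length (horizontal axis, 1 is shortest), for the 3 groups of 3 libraries. Vehicle 3 and rhWnt3a 2 fall below 0 for the longest genes (−0.35 and −0.39) and rhWnt3a with OSMI 3 rises above it (0.24).

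Cells build cholesterol from acetyl-CoA by way of mevalonate, farnesyl diphosphate, squalene and lanosterol, and fatty acids from the same acetyl-CoA by way of malonyl-CoA. The transcription factors SREBP1 and SREBP2, encoded by Srebf1 and Srebf2, raise transcription of most of these enzymes when sterols in the endoplasmic reticulum are scarce, while the Insig proteins hold their precursors back when sterols are plentiful. The promoters on which SREBPs act commonly pair a sterol regulatory element with a CCAAT box, the site of NF-Y, or with a GC box, the site of Sp1.

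RefSeq start windows, 250 bases before to 50 after the annotated start (GRCm38.p6), were found for 24 of the 31 members, 29 windows in all. Matches on both strands were sought to TCACNCCAC (a core of the sterol regulatory element, SRE), to CCAAT and to GGGCGG (the GC box). The CCAAT box was present in 22 of the 29 windows (75.9%), against 37.4% of all 32851 windows of the same length. GGGCGG was present in 21 of the 29 (72.4%), against 35.7% of all windows. TCACNCCAC was present in 1 member window, that of Hmgcs1, and in 1.24% of all windows. Several members have CCAAT more than once, with 5 matches in the window of Mvk and 4 each in those of Hmgcs1 and Nsdhl. The windows of Acaca and Elovl6 hold none of these motifs. By gene, 21 of the 24 members had CCAAT and 19 had GGGCGG, since some members have more than 1 window. The set of all windows was not limited to the tested genes, so these shares are not set against expressed genes alone. A match describes the letters present and was not tested as a binding site.

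The following windows belong to the 5 members that were called lower with rhWnt3a and OSMI than with vehicle in each of the 24 alternative analyses, and they show how the shared letters are placed. Capitals mark matches to CCAAT, which reads ATTGG on the other strand, and the SRE match in Hmgcs1, and of 2 Pmvk windows the one with a match is given.
Hmgcs1, chr13:119690101-119690400, GRCm38.p6, plus strand: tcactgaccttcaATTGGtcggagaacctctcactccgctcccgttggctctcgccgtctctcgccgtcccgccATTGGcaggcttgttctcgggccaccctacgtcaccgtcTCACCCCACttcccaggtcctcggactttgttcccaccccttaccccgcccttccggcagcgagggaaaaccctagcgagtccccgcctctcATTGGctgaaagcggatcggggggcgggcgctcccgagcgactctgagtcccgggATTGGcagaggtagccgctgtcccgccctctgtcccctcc
Pmvk, chr3:89454291-89454590, GRCm38.p6, plus strand: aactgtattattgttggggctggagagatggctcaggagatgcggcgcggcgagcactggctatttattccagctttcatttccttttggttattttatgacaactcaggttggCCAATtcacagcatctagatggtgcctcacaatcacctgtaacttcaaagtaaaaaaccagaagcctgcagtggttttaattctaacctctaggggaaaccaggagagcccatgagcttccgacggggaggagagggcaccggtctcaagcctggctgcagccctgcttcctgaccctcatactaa
Cyp51, chr5:4104648-4104947, GRCm38.p6, minus strand: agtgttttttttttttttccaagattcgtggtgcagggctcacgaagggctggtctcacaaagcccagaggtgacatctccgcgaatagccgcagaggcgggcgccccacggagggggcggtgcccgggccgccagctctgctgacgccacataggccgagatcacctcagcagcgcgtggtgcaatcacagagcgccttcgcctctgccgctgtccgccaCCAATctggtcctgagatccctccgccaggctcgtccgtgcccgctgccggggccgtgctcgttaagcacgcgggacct
Nsdhl, chrX:72918271-72918570, GRCm38.p6, plus strand: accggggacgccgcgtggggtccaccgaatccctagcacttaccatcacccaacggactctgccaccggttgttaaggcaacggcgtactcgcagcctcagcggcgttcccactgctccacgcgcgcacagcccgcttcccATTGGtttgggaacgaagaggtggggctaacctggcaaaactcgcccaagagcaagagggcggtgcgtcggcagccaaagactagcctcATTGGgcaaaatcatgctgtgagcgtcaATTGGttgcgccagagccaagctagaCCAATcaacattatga
Hsd17b7, chr1:169969156-169969455, GRCm38.p6, minus strand: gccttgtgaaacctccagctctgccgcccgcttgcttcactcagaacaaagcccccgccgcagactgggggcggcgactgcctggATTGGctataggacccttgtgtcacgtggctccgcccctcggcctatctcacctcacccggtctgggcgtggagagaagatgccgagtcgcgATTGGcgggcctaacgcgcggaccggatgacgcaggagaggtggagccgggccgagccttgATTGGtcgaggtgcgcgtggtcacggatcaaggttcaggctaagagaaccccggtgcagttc
In the Hmgcs1 window the SRE match begins 137 bases before the start and lies between CCAAT matches at 176 and 45 bases before it. The single CCAAT of Cyp51 begins 29 bases before the start, and Hsd17b7 carries matches at 165, 73 and 12 bases before it.

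**Figure D2:**
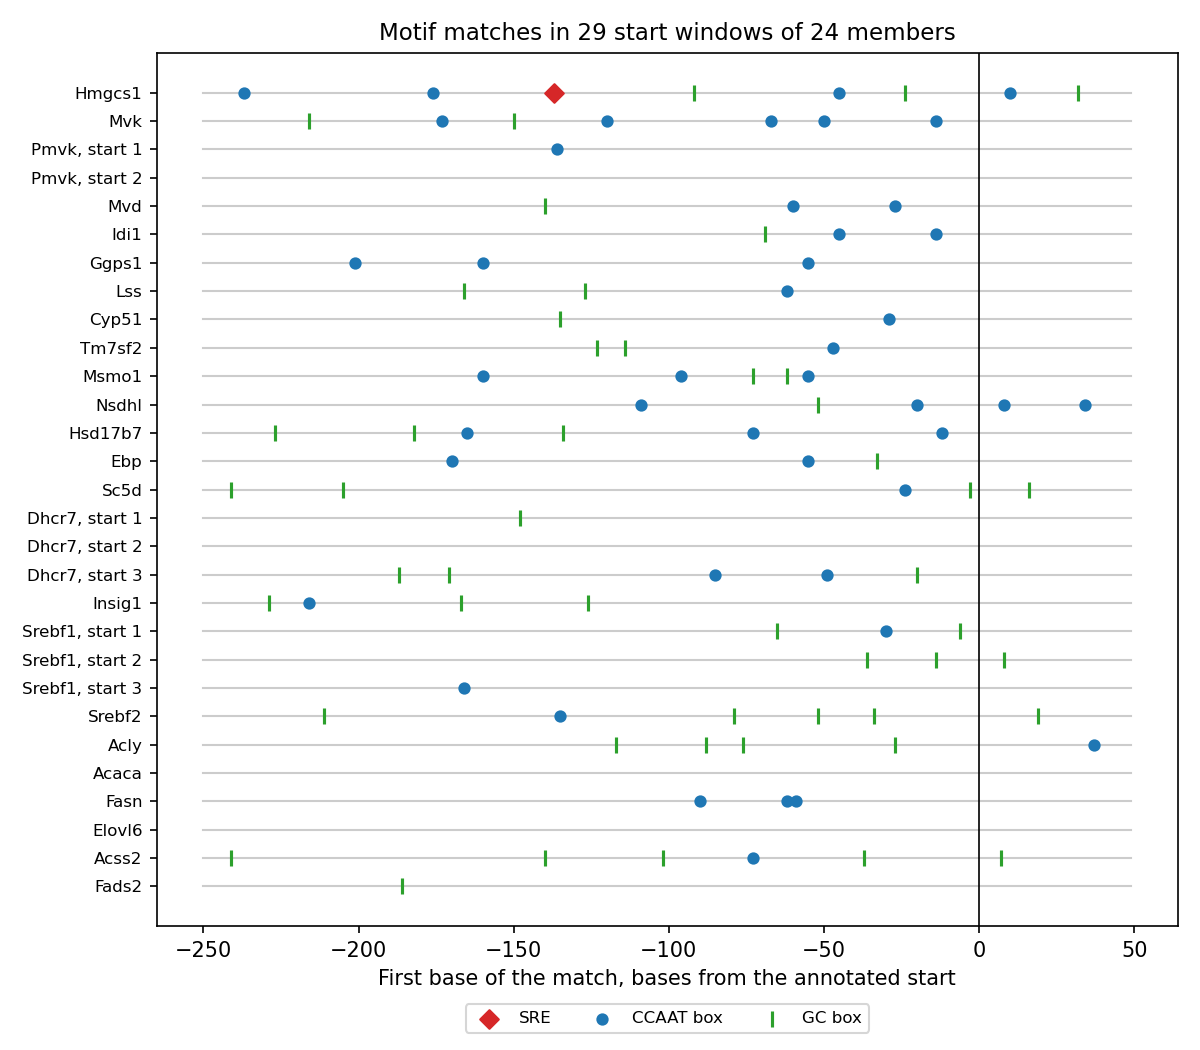
First base of each motif match (horizontal axis, in bases from the annotated start) in 29 start windows of 24 members, 1 row per window. Diamonds mark the SRE, circles CCAAT and green ticks the GC box; 22 windows hold CCAAT, 21 hold the GC box and 1 the SRE.

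Levels per length were compared with the deposited FPKM values. In vehicle the highest mean was that of Scd2, a stearoyl-CoA desaturase, at 243 ± 78.5 FPKM (mean ± SD, n = 3). The next were the polyunsaturated fatty acid desaturases Fads1 at 134 ± 13.2 and Fads2 at 125 ± 19.8 FPKM, whose difference was smaller than their SDs. Insig1 at 93.6 ± 14.8 and Cyp51 at 87.7 ± 15.3 FPKM followed and also lay within each other's spread. At the low end stood Fdps at 1.89 ± 0.960 and Acss2 at 1.23 ± 0.594 FPKM. This order rests on the deposited gene lengths. Those of Fads2 (1508 bases) and Acss2 (10163 bases) differ from their longest annotated transcripts (3150 and 3609 bases). In mean CPM in vehicle, Acss2 (12.7) lay above Fdps (8.04). Scd1, the paralog of Scd2, had 11.7 ± 3.67 FPKM.

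**Figure D3:**
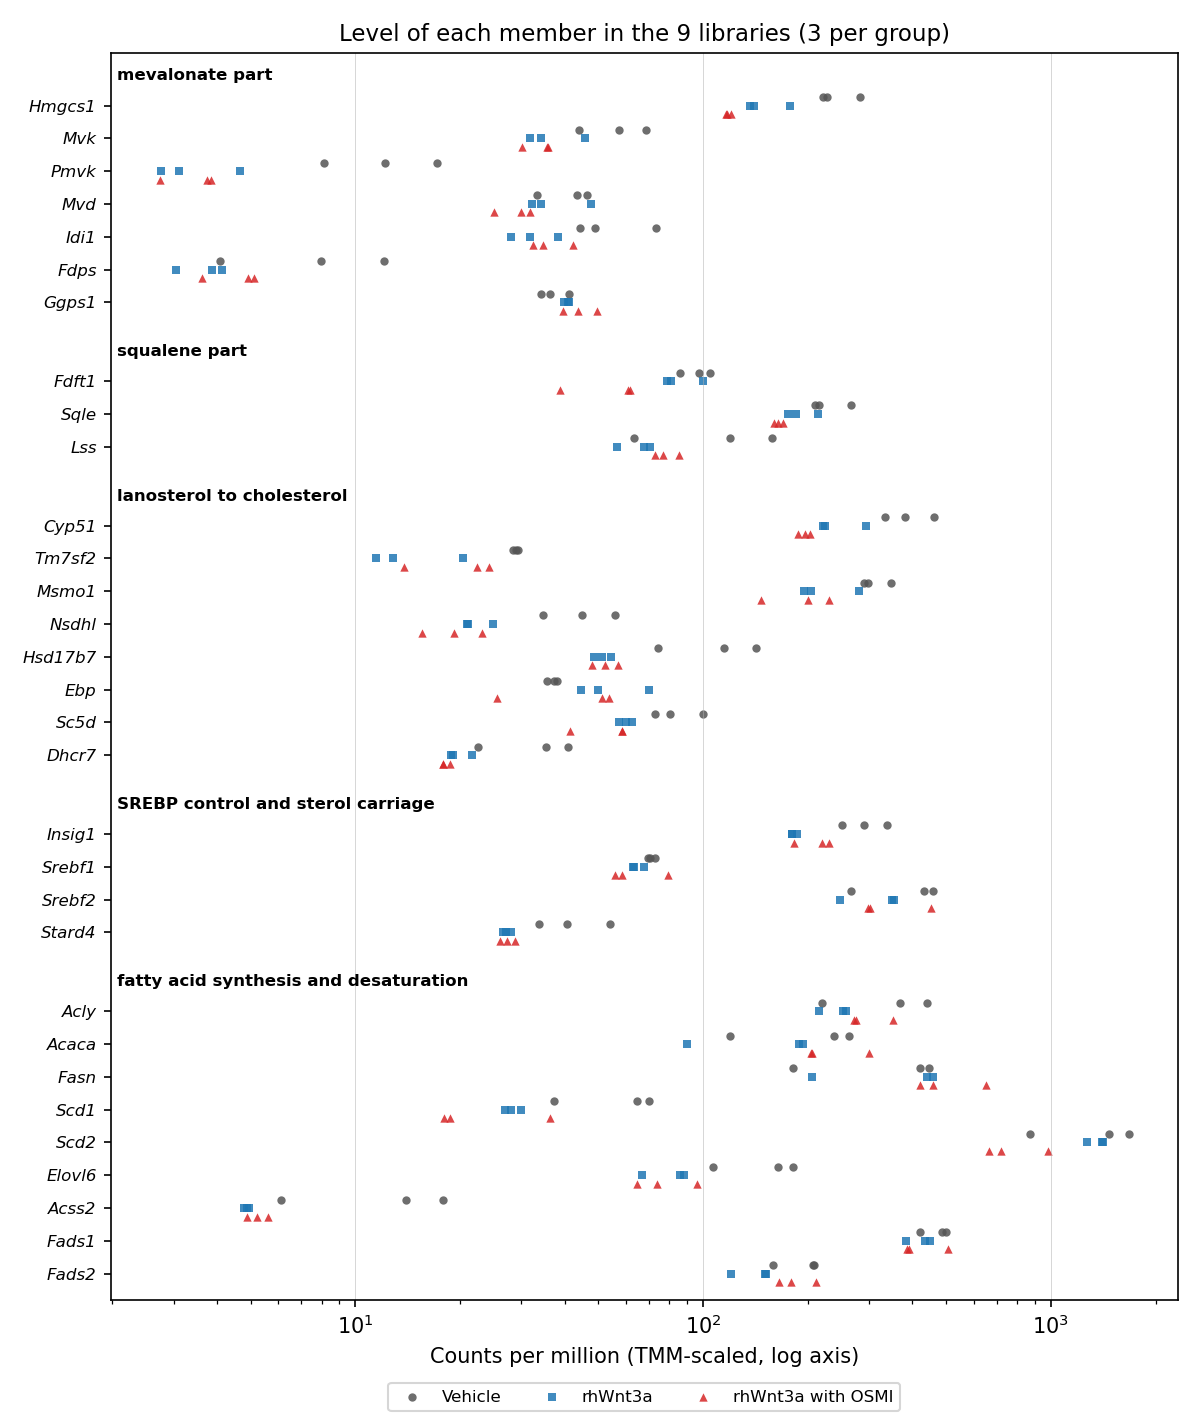
Level of each of the 31 members in the 9 libraries (horizontal log axis, TMM-scaled CPM), with 1 point per library, circles for vehicle, squares for rhWnt3a and triangles for rhWnt3a with OSMI. For Pmvk the 3 vehicle libraries lie at 8.14 to 17.2 CPM and the other 6 at 2.74 to 4.66 CPM.

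The 31 members together took 6998, 6135 and 4411 CPM in vehicle 1 to 3, 4911, 4458 and 4848 in rhWnt3a 1 to 3, and 4006, 4165 and 4936 in rhWnt3a with OSMI 1 to 3. Vehicle 3 thus lay at the level of the treated libraries in this sum, and vehicle 1 and 2 lay above all of them. Vehicle 1 was the highest vehicle library for 26 of the 31 members, and vehicle 3 was the lowest for 24. In the mean of log2 CPM over the members, which gives each gene the same weight, the vehicle libraries had 6.87, 6.65 and 6.23, the rhWnt3a libraries 6.04, 6.07 and 6.02, and the OSMI libraries 5.999, 6.06 and 5.999. On that scale vehicle 3 lay above all 6 treated libraries.

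With rhWnt3a, 10 of the 31 members were called lower than with vehicle and 0 were called higher. A call means an adjusted p under 0.05 from edgeR's quasi-likelihood test, adjusted by Benjamini-Hochberg over the 14004 genes, and more than 0.5 of log2 change up or down. Over all tested genes 5.86% were called lower and 2.92% higher. The members called were Hmgcs1, Pmvk, Cyp51, Tm7sf2, Nsdhl, Hsd17b7, Insig1, Stard4, Elovl6 and Acss2. The median log2 fold change was −0.60 over the members and 0.04 over all tested genes, and 27 members had a negative value. All 3 rhWnt3a libraries lay below all 3 vehicle libraries for 17 members, against 14.2% of tested genes, and above them for 1, against 12.2%. At an unadjusted p under 0.05, 16 members passed the lower fold threshold and 0 the higher, against 1346 and 809 of the 14004 tested genes. DESeq2 called 15 lower and 0 higher, against 1018 and 529 of all, and added Idi1, Fdps, Lss, Dhcr7 and Scd1. The correction for gene length added the same but Fdps, and ended the call of Tm7sf2.

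The number called depended on single libraries. It was 3 without vehicle 1, 2 without vehicle 2, 2 without rhWnt3a 1 and 2 without rhWnt3a 3, against 16 without vehicle 3. The shares of all tested genes called lower were 3.63%, 3.44%, 3.28% and 3.54%, against 6.25%. Without the 3 libraries that lay apart, which leaves 2 closely alike libraries per group, 19 members were called lower, against 11.4% of all tested genes, and the median was −0.83. These were the 10 above with Mvk, Idi1, Fdps, Lss, Msmo1, Sc5d, Dhcr7, Acly and Scd1. Pmvk and Hsd17b7 were called in each of the 24 alternatives.

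With rhWnt3a and OSMI, 14 members were called lower than with vehicle and 0 higher, where 9.34% of all tested genes were called lower and 4.84% higher. They were Hmgcs1, Mvk, Pmvk, Fdft1, Cyp51, Msmo1, Nsdhl, Hsd17b7, Sc5d, Dhcr7, Stard4, Scd1, Elovl6 and Acss2. The median log2 fold change of the members was −0.64, that of all tested genes −0.01, and 27 members had a negative value. The 3 OSMI libraries lay below the 3 vehicle libraries for 19 members (19.5% of tested genes) and above them for 0 (19.3%). At an unadjusted p under 0.05, 18 members passed the lower fold threshold and 0 the higher, against 1981 and 1205 of all tested genes. DESeq2 called 16 lower and 0 higher, against 1557 and 849 of all, and added Idi1 and Scd2. The correction for gene length added Sqle, Lss and Scd2. The count was 5 without vehicle 1, where the median was −0.42, 5 without vehicle 2, 6 without OSMI 1 and 8 without OSMI 2, where 5.98%, 5.72%, 6.005% and 6.22% of all tested genes were called lower. Without the 3 libraries that lay apart it was 23, with Mvd, Idi1, Fdps, Sqle, Lss, Insig1, Srebf2, Acly and Scd2 added, while the share of all tested genes called lower rose to 15.7%. There the length pattern of the libraries and OSMI cannot be told apart. Hmgcs1, Pmvk, Cyp51, Nsdhl and Hsd17b7 were called in each of the 24 alternatives.

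Between rhWnt3a with OSMI and rhWnt3a, edgeR called 0 members lower and 0 higher, where 3.05% of all tested genes were called lower and 1.69% higher. The median log2 fold change was 0.00 for the members and −0.01 for all tested genes, with 15 members below 0 and 16 above. The OSMI libraries lay below all rhWnt3a libraries for 7 members (17.0% of tested genes) and above them for 4 (16.7%). At an unadjusted p under 0.05, 2 members passed the lower fold threshold, Fdft1 and Scd2, and 0 the higher, against 1497 and 774 of all tested genes. DESeq2 called the same 2 lower and 0 higher, against 839 and 458 of all. Both were also called with no filter beyond 1 count and with a correction for gene length and GC (−0.73 for Fdft1 and −0.91 for Scd2). Scd2 was further called without vehicle 3 (log2 fold change −0.79) and with a correction for gene length alone (−0.91). Without the 3 libraries that lay apart Scd1 (−0.66) and Scd2 (−1.03) were called lower and Tm7sf2 higher (log2 fold change 0.94), against 8.69% and 3.99% of all tested genes. In that fit the length pattern of the libraries and OSMI cannot be told apart, so these calls are not read as effects of OSMI. The 3 comparisons share groups of libraries, so their values are set side by side and no overlap between them is given.

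**Figure D4:**
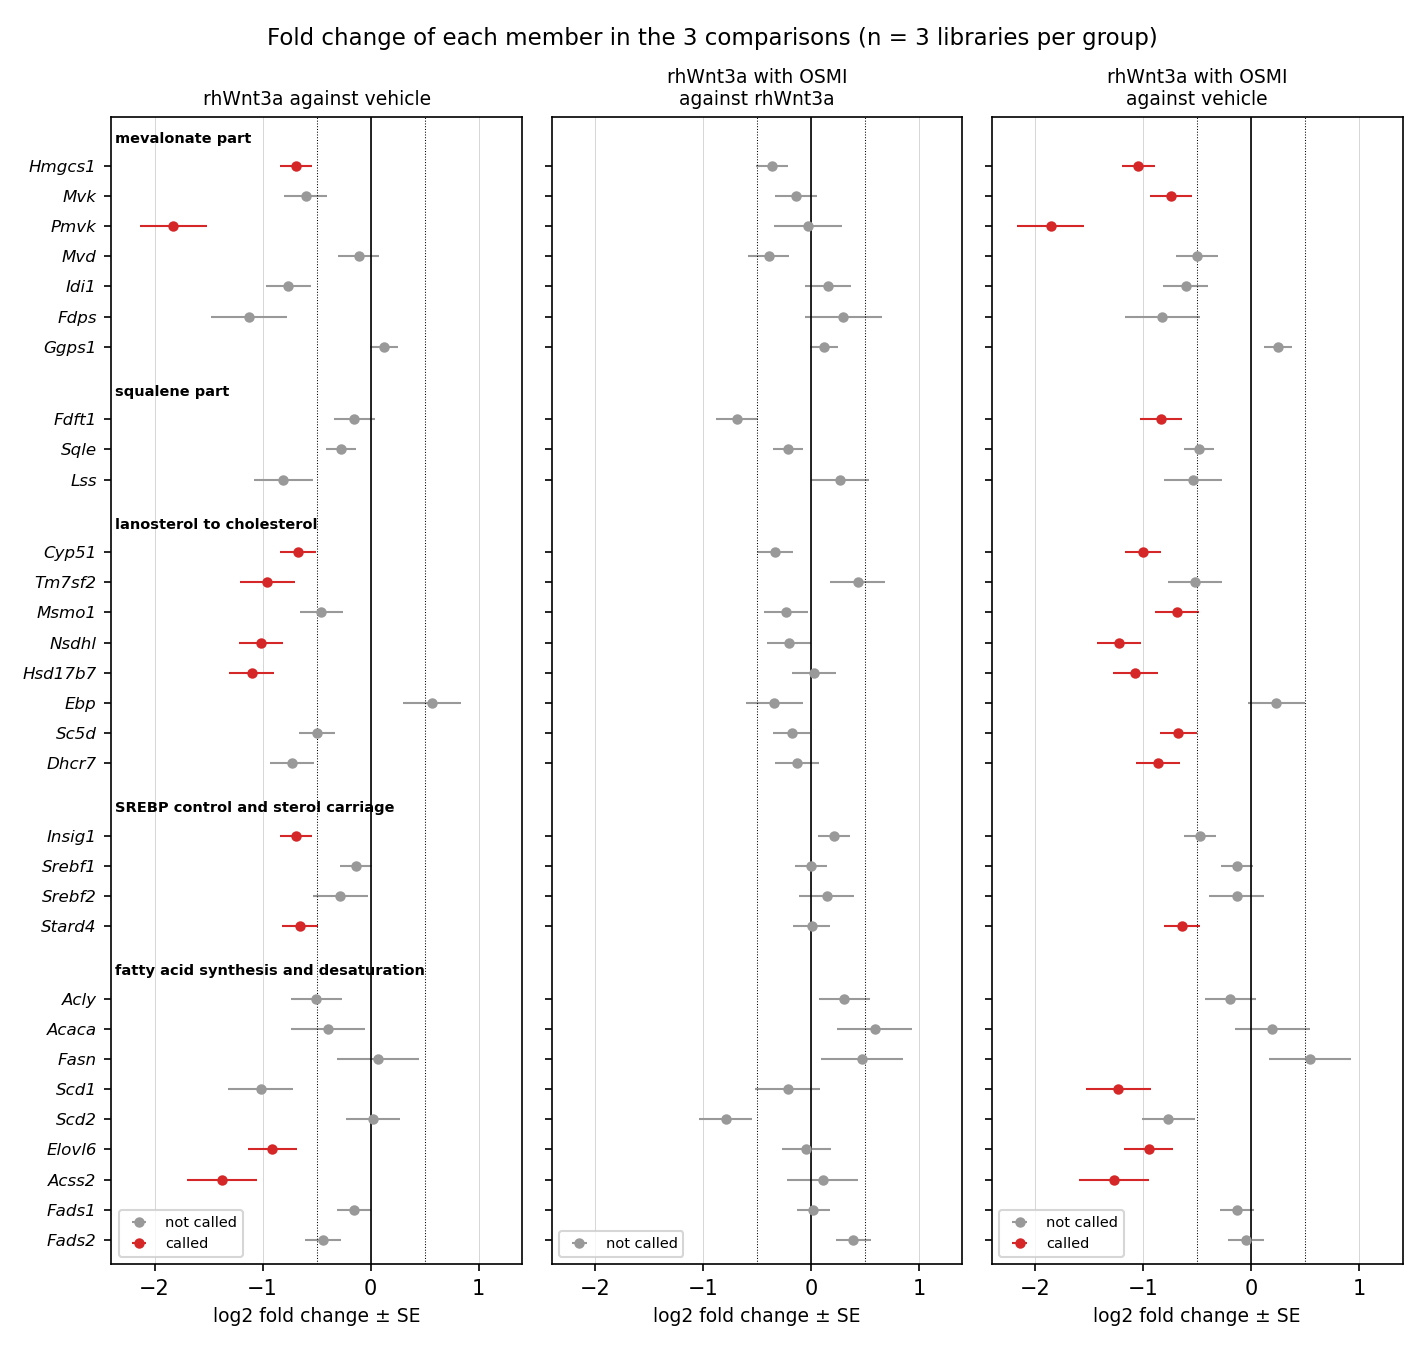
Log2 fold change of each member (horizontal axis, with SE bars from the fit to 3 libraries per group) in the 3 comparisons, ordered by role, with dotted lines at the fold threshold of 0.5 and called members in red. Called members number 10 in the left panel, 0 in the middle and 14 on the right, each of them below 0.

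In the mevalonate part, 2 of 7 members were called lower with rhWnt3a and 3 of 7 with rhWnt3a and OSMI. Hmgcs1 (chr13:119690379-119708260, mm10), which makes HMG-CoA from acetoacetyl-CoA, had 282, 221 and 228 CPM in vehicle 1 to 3, 136, 178 and 139.9 in rhWnt3a 1 to 3 and 117, 117 and 119.9 in rhWnt3a with OSMI 1 to 3. The 3 groups did not overlap, with the OSMI libraries lowest. Against vehicle its log2 fold change was −0.69 ± 0.15 (SE; adjusted p = 0.0176) with rhWnt3a and −1.05 ± 0.15 (SE; adjusted p = 0.00150) with rhWnt3a and OSMI. The difference between the treated groups, −0.36 ± 0.15 (SE; adjusted p = 0.194), did not pass. The call with rhWnt3a was lost without vehicle 1, vehicle 2, rhWnt3a 1 or rhWnt3a 3 (log2 fold changes −0.73 to −0.57, adjusted p 0.0540 to 0.121). The exons of Hmgcs1 share 12.1% of their bases with an overlapping gene model, and reads from the shared bases cannot be told apart.

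Pmvk (chr3:89454541-89469013), the phosphomevalonate kinase, showed the steepest drop of the members in both comparisons with vehicle. It had 17.2, 12.2 and 8.14 CPM in vehicle 1 to 3, 3.10, 4.66 and 2.75 in rhWnt3a 1 to 3 and 3.75, 3.85 and 2.74 in rhWnt3a with OSMI 1 to 3. Every treated library lay below every vehicle library, and the treated groups overlapped. The log2 fold change was −1.83 ± 0.31 (SE; adjusted p = 0.00462) with rhWnt3a and −1.86 ± 0.31 (SE; adjusted p = 0.00339) with rhWnt3a and OSMI, and it stayed called when any library was left out. Mvk, the mevalonate kinase that acts just before it, had 68.6, 57.1 and 43.9 CPM in vehicle 1 to 3, 34.2, 45.9 and 31.7 in rhWnt3a 1 to 3 and 35.6, 35.7 and 30.2 in rhWnt3a with OSMI 1 to 3. Vehicle 3 lay below rhWnt3a 2 and above the OSMI libraries. Its log2 fold change was −0.60 ± 0.20 (SE; adjusted p = 0.0984) with rhWnt3a, which did not pass, and −0.74 ± 0.20 (SE; adjusted p = 0.0308) with rhWnt3a and OSMI. The latter call was lost without vehicle 1, vehicle 2, rhWnt3a 1, rhWnt3a with OSMI 1, rhWnt3a with OSMI 2 or rhWnt3a with OSMI 3 (log2 fold changes −0.75 to −0.56, adjusted p 0.0604 to 0.118), and the former was gained without vehicle 3 or rhWnt3a 2 (log2 fold changes −0.78 to −0.75, adjusted p 0.0347 to 0.0399).

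The remaining mevalonate members were not called by edgeR with all libraries, the filter on low counts, TMM and no correction. Mvd, the diphosphomevalonate decarboxylase, ranged over 25.003 to 47.5 CPM and Idi1, the isopentenyl diphosphate isomerase, over 27.999 to 73.1 CPM. Idi1 with rhWnt3a lay below vehicle in all libraries, with a log2 fold change of −0.76 ± 0.21 (SE; adjusted p = 0.0516), and it was called without vehicle 3, rhWnt3a 2 or rhWnt3a with OSMI 3 (log2 fold changes −0.90 to −0.76, adjusted p 0.0294 to 0.0462), with the correction for gene length (−0.75), by DESeq2 (−0.78) and with no filter beyond 1 count (−0.78). Against vehicle the OSMI group gave −0.61 ± 0.21, called without vehicle 3 (log2 fold change −0.74, adjusted p 0.0485), by DESeq2 (−0.62) and with no filter beyond 1 count (−0.61). Fdps, which makes farnesyl diphosphate, was low at 3.05 to 12.1 CPM and was called without vehicle 3 (log2 fold change −1.44, adjusted p 0.00825) with rhWnt3a and without vehicle 3 (log2 fold change −1.14, adjusted p 0.0183) with rhWnt3a and OSMI. With no filter beyond 1 count both values were called (−1.14 and −0.83), and DESeq2 called the first (−1.14). Near-identical stretches of 5 other genes cover 16.7% of its longest transcript and 26.7% of its exon bases lie in another gene model, so its counts are uncertain, as are those of Idi1, where 33.3% of the transcript has such copies. Ggps1, which makes geranylgeranyl diphosphate, ranged over 34.1 to 49.5 CPM and had positive values in both comparisons with vehicle, 0.13 ± 0.13 and 0.25 ± 0.13, neither of them called. Near-identical stretches of 2 other genes cover 27.3% of its longest transcript, so the Ggps1 counts are uncertain too.

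In the squalene part 0 of 3 members were called with rhWnt3a and 1 of 3 with rhWnt3a and OSMI. Fdft1, the squalene synthase, had 105, 97.2 and 86.0 CPM in vehicle 1 to 3, 78.6, 99.7 and 80.8 in rhWnt3a 1 to 3 and 60.8, 61.6 and 38.7 in rhWnt3a with OSMI 1 to 3. Its vehicle and rhWnt3a libraries overlapped, and all OSMI libraries lay below both groups. The log2 fold change was −0.15 ± 0.19 (SE; adjusted p = 0.768) with rhWnt3a, −0.68 ± 0.19 (SE; adjusted p = 0.0722) between the OSMI and rhWnt3a groups and −0.84 ± 0.19 (SE; adjusted p = 0.0166) between the OSMI and vehicle groups. The second was called by DESeq2 (−0.68) and with a correction for gene length and GC (−0.73). The last call was lost without vehicle 1 or vehicle 2 (log2 fold changes −0.79 to −0.75, adjusted p 0.0607 to 0.0672). Near-identical stretches of 2 other genes, one of which overlaps it, cover 54.7% of the longest Fdft1 transcript, so its level is uncertain. Sqle, the squalene epoxidase, ranged over 160.2 to 267 CPM, and its OSMI value against vehicle, −0.49 ± 0.14 (SE; adjusted p = 0.0428), fell short of the fold threshold with all libraries. It was called without vehicle 3 (log2 fold change −0.53, adjusted p 0.0486), without the 3 libraries that lay apart (−0.60) and with a correction for gene length (−0.57). Lss, the lanosterol synthase, ranged over 56.6 to 158 CPM with vehicle 3 at 63.2 CPM among the treated libraries. Its log2 fold changes against vehicle were −0.81 ± 0.27 and −0.54 ± 0.27, and they were called without vehicle 3 (log2 fold change −1.09, adjusted p 0.00319) and without vehicle 3 (log2 fold change −0.83, adjusted p 0.0103), respectively. Both were also called with the correction for gene length (−0.76 and −0.74), and the first by DESeq2 (−0.83).

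Among the enzymes from lanosterol to cholesterol 4 of 8 were called lower with rhWnt3a and 6 of 8 with rhWnt3a and OSMI. Cyp51 (chr5:4081145-4104746), which removes the 14-alpha methyl group of lanosterol, had 461, 379.7 and 334 CPM in vehicle 1 to 3, 224, 293 and 221 in rhWnt3a 1 to 3 and 187, 203 and 196 in rhWnt3a with OSMI 1 to 3. The groups did not overlap, and the OSMI libraries were the lowest. Its log2 fold change against vehicle was −0.67 ± 0.17 (SE; adjusted p = 0.0316) with rhWnt3a and −1.004 ± 0.17 (SE; adjusted p = 0.00327) with rhWnt3a and OSMI. The first of these calls was lost without vehicle 1, vehicle 2, rhWnt3a 1, rhWnt3a 3, rhWnt3a with OSMI 1 or rhWnt3a with OSMI 2 (log2 fold changes −0.67 to −0.54, adjusted p 0.0564 to 0.178). Tm7sf2, a sterol C14 reductase, had 28.3, 29.4 and 29.0 CPM in vehicle 1 to 3, 11.4, 20.4 and 12.8 in rhWnt3a 1 to 3 and 22.4, 24.2 and 13.8 in rhWnt3a with OSMI 1 to 3. Vehicle libraries were nearly equal and lay above the others, while the treated groups overlapped and the library that lay apart in each was the odd one. The log2 fold change was −0.96 ± 0.25 (SE; adjusted p = 0.0441) with rhWnt3a and −0.52 ± 0.25 (SE; adjusted p = 0.194) with rhWnt3a and OSMI. The rhWnt3a call was lost without vehicle 1, vehicle 2, vehicle 3, rhWnt3a 1, rhWnt3a 3 or rhWnt3a with OSMI 1 (log2 fold changes −0.97 to −0.76, adjusted p 0.0594 to 0.196), and also with the correction for gene length, where the fold change was about as large (−0.92, adjusted p 0.0645). Of its exon bases 12.1% lie in another gene model.

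Msmo1, the sterol C4 methyl oxidase, had 346, 289.6 and 297 CPM in vehicle 1 to 3, 204, 280.2 and 195 in rhWnt3a 1 to 3 and 201, 231 and 147 in rhWnt3a with OSMI 1 to 3. Both treated groups lay below vehicle, and rhWnt3a 2 came close to it, for a log2 fold change of −0.46 ± 0.20 (SE; adjusted p = 0.237) with rhWnt3a and −0.69 ± 0.20 (SE; adjusted p = 0.0448) with rhWnt3a and OSMI, the latter lost without vehicle 1, vehicle 2, vehicle 3, rhWnt3a 1, rhWnt3a 3, rhWnt3a with OSMI 1 or rhWnt3a with OSMI 3 (log2 fold changes −0.72 to −0.52, adjusted p 0.0632 to 0.136). Nsdhl (chrX:72918557-72958514), the dehydrogenase of the same demethylation, had 55.8, 44.7 and 34.6 CPM in vehicle 1 to 3, 21.05, 24.8 and 20.9 in rhWnt3a 1 to 3 and 19.2, 23.1 and 15.6 in rhWnt3a with OSMI 1 to 3. All treated libraries lay below all vehicle libraries. The log2 fold change was −1.02 ± 0.20 (SE; adjusted p = 0.0116) with rhWnt3a and −1.22 ± 0.21 (SE; adjusted p = 0.00350) with rhWnt3a and OSMI. Only the rhWnt3a call was lost with a library left out, namely without vehicle 2, rhWnt3a 1 or rhWnt3a 3 (log2 fold changes −0.999 to −0.94, adjusted p 0.0521 to 0.0689). Hsd17b7 (chr1:169949535-169969241), the ketoreductase that completes this step, had 142, 114 and 74.0 CPM in vehicle 1 to 3, 54.3, 51.1 and 48.6 in rhWnt3a 1 to 3 and 47.8, 56.9 and 52.3 in rhWnt3a with OSMI 1 to 3. The treated libraries formed a narrow range below vehicle, with a log2 fold change of −1.10 ± 0.21 (SE; adjusted p = 0.00860) with rhWnt3a and −1.07 ± 0.21 (SE; adjusted p = 0.00752) with rhWnt3a and OSMI.

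Sc5d, the lathosterol oxidase, had 100.04, 80.5 and 72.6 CPM in vehicle 1 to 3, 59.9, 62.3 and 57.3 in rhWnt3a 1 to 3 and 58.5, 58.5 and 41.5 in rhWnt3a with OSMI 1 to 3. Vehicle lay above both treated groups, with a log2 fold change of −0.50 ± 0.17 (SE; adjusted p = 0.117) with rhWnt3a and −0.68 ± 0.17 (SE; adjusted p = 0.0253) with rhWnt3a and OSMI. The call was lost without vehicle 1, vehicle 2, rhWnt3a 1 or rhWnt3a with OSMI 1 (log2 fold changes −0.73 to −0.52, adjusted p 0.0503 to 0.0938). Dhcr7, which makes cholesterol from its 7-dehydro precursor, had 41.0, 35.4 and 22.5 CPM in vehicle 1 to 3, 18.8, 19.1 and 21.7 in rhWnt3a 1 to 3 and 18.7, 17.8 and 17.8 in rhWnt3a with OSMI 1 to 3. Vehicle 3 lay just above the treated libraries, and the log2 fold change was −0.73 ± 0.20 (SE; adjusted p = 0.0519) with rhWnt3a and −0.86 ± 0.20 (SE; adjusted p = 0.0187) with rhWnt3a and OSMI. The OSMI call was lost without vehicle 1, vehicle 2, rhWnt3a with OSMI 1 or rhWnt3a with OSMI 2 (log2 fold changes −0.85 to −0.65, adjusted p 0.0620 to 0.0803), and a call with rhWnt3a was gained without vehicle 3 or rhWnt3a with OSMI 3 (log2 fold changes −0.94 to −0.73, adjusted p 0.00321 to 0.0495). Ebp, the sterol isomerase, went the other way in value. It had 35.6, 37.2 and 37.9 CPM in vehicle 1 to 3, 44.6, 70.0 and 49.8 in rhWnt3a 1 to 3 and 51.0, 53.5 and 25.5 in rhWnt3a with OSMI 1 to 3. All rhWnt3a libraries lay above all vehicle libraries, but the log2 fold change of 0.57 ± 0.27 (SE; adjusted p = 0.273) did not pass, and the OSMI libraries ran from below vehicle into the rhWnt3a range.

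Of the genes of sterol sensing and carriage 2 of 4 were called lower with rhWnt3a and 1 of 4 with rhWnt3a and OSMI. Insig1, itself a target of SREBPs as well as their brake, had 338, 289.5 and 251 CPM in vehicle 1 to 3, 179.7, 186 and 181 in rhWnt3a 1 to 3 and 220.3, 231 and 183 in rhWnt3a with OSMI 1 to 3. Both treated groups lay below vehicle and overlapped each other. Its log2 fold change was −0.69 ± 0.15 (SE; adjusted p = 0.0171) with rhWnt3a and −0.47 ± 0.15 (SE; adjusted p = 0.0589) with rhWnt3a and OSMI. The rhWnt3a call was lost without vehicle 1, vehicle 2, rhWnt3a 1 or rhWnt3a 3 (log2 fold changes −0.68 to −0.57, adjusted p 0.0687 to 0.0918), and the other value became a call without vehicle 3 (log2 fold change −0.57, adjusted p 0.0331). Stard4, a carrier of cholesterol in the cytosol, had 53.9, 40.6 and 33.7 CPM in vehicle 1 to 3, 26.6, 27.1 and 27.9 in rhWnt3a 1 to 3 and 27.2, 28.7 and 26.1 in rhWnt3a with OSMI 1 to 3. The 6 treated libraries lay within a narrow range below vehicle, with a log2 fold change of −0.65 ± 0.17 (SE; adjusted p = 0.0384) with rhWnt3a and −0.64 ± 0.17 (SE; adjusted p = 0.0291) with rhWnt3a and OSMI. These calls were lost without vehicle 1, vehicle 2, rhWnt3a 1, rhWnt3a 2, rhWnt3a 3, rhWnt3a with OSMI 1 or rhWnt3a with OSMI 2 (log2 fold changes −0.67 to −0.45, adjusted p 0.0619 to 0.157) and without vehicle 1, vehicle 2, rhWnt3a 1, rhWnt3a 3, rhWnt3a with OSMI 1, rhWnt3a with OSMI 2 or rhWnt3a with OSMI 3 (log2 fold changes −0.65 to −0.42, adjusted p 0.0514 to 0.102), respectively.

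The messages of the SREBPs themselves were not called in any comparison with all libraries. Srebf1 ranged over 55.9 to 79.4 CPM, with log2 fold changes against vehicle of −0.13 ± 0.15 and −0.13 ± 0.15. Srebf2, the SREBP more closely tied to cholesterol synthesis, ranged over 248 to 457 CPM with log2 fold changes of −0.28 ± 0.25 and −0.13 ± 0.25. Its lowest libraries were rhWnt3a 2 and vehicle 3 and its highest vehicle 1 and rhWnt3a with OSMI 3. Each of these but vehicle 1 is a library that lay apart. Without the 3 of them the groups did not overlap, and Srebf2 was called lower in the OSMI group than in vehicle (−0.61) but not with rhWnt3a. However, rhWnt3a with OSMI 1 and 2 (303 and 298 CPM) lay below rhWnt3a with OSMI 3 (452 CPM). In the same way vehicle 3 and rhWnt3a 2 lay below the rest of their groups. The library pattern and OSMI cannot be told apart in that value. Messenger levels say nothing of the cleavage that activates these proteins.

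Among the 9 fatty acid members 2 were called lower with rhWnt3a and 3 with rhWnt3a and OSMI. Elovl6, which elongates palmitate to stearate, had 182, 165 and 106 CPM in vehicle 1 to 3, 86.1, 66.7 and 88.4 in rhWnt3a 1 to 3 and 64.6, 73.6 and 96.0 in rhWnt3a with OSMI 1 to 3. The vehicle libraries lay above all others, and vehicle 3 was nearest to them, for a log2 fold change of −0.91 ± 0.22 (SE; adjusted p = 0.0319) with rhWnt3a and −0.95 ± 0.22 (SE; adjusted p = 0.0192) with rhWnt3a and OSMI. These calls were lost without vehicle 1, vehicle 2, rhWnt3a 1, rhWnt3a 2, rhWnt3a 3 or rhWnt3a with OSMI 2 (log2 fold changes −0.98 to −0.75, adjusted p 0.0562 to 0.142) and without vehicle 1, vehicle 2, rhWnt3a with OSMI 1 or rhWnt3a with OSMI 2 (log2 fold changes −0.87 to −0.77, adjusted p 0.0783 to 0.0901), respectively. Acss2, which makes acetyl-CoA from acetate, had 17.9, 14.0 and 6.11 CPM in vehicle 1 to 3, 4.87, 4.95 and 4.79 in rhWnt3a 1 to 3 and 5.62, 5.22 and 4.90 in rhWnt3a with OSMI 1 to 3. Vehicle 1 and 2 were far above the 6 treated libraries and vehicle 3 only slightly so. The log2 fold change was −1.38 ± 0.33 (SE; adjusted p = 0.0266) with rhWnt3a and −1.27 ± 0.32 (SE; adjusted p = 0.0273) with rhWnt3a and OSMI, lost without vehicle 1, vehicle 2, rhWnt3a 1, rhWnt3a 2 or rhWnt3a 3 (log2 fold changes −1.38 to −1.04, adjusted p 0.0645 to 0.106) and without vehicle 1, vehicle 2, rhWnt3a with OSMI 1, rhWnt3a with OSMI 2 or rhWnt3a with OSMI 3 (log2 fold changes −1.29 to −0.91, adjusted p 0.0660 to 0.104), respectively.

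Scd1, the desaturase that makes oleate, had 69.8, 64.7 and 37.3 CPM in vehicle 1 to 3, 30.0, 26.9 and 27.999 in rhWnt3a 1 to 3 and 18.0, 18.7 and 36.4 in rhWnt3a with OSMI 1 to 3. Vehicle lay above both treated groups, although rhWnt3a with OSMI 3 came within reach of vehicle 3. Its log2 fold change was −1.02 ± 0.30 (SE; adjusted p = 0.0678) with rhWnt3a and −1.23 ± 0.30 (SE; adjusted p = 0.0221) with rhWnt3a and OSMI. The OSMI call was lost without vehicle 1, vehicle 2, rhWnt3a with OSMI 1 or rhWnt3a with OSMI 2 (log2 fold changes −1.09 to −1.01, adjusted p 0.0866 to 0.0946), and a call with rhWnt3a was gained without vehicle 3 or rhWnt3a with OSMI 3 (log2 fold changes −1.25 to −1.01, adjusted p 0.0136 to 0.0222). Its paralog Scd2 had 1678, 1474 and 869 CPM in vehicle 1 to 3, 1411, 1269 and 1404 in rhWnt3a 1 to 3 and 663, 717 and 982 in rhWnt3a with OSMI 1 to 3. The OSMI libraries lay below all rhWnt3a libraries, and vehicle 3 lay within the OSMI range. The log2 fold change of Scd2 was 0.02 ± 0.25 (SE; adjusted p = 0.980) with rhWnt3a, −0.79 ± 0.25 (SE; adjusted p = 0.102) between the OSMI and rhWnt3a groups and −0.77 ± 0.25 (SE; adjusted p = 0.0657) between the OSMI and vehicle groups. The last became a call without vehicle 3 or rhWnt3a with OSMI 3 (log2 fold changes −0.999 to −0.95, adjusted p 0.0111 to 0.0339).

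The first enzymes of fatty acid synthesis were not called with all libraries, and for 2 of them the libraries that lay apart held the extremes. Fasn, the fatty acid synthase, had 447, 421 and 181 CPM in vehicle 1 to 3, 457, 205 and 439.7 in rhWnt3a 1 to 3 and 422, 458 and 652 in rhWnt3a with OSMI 1 to 3. Vehicle 3 and rhWnt3a 2 were lowest and rhWnt3a with OSMI 3 highest, and the log2 fold changes against vehicle were 0.07 ± 0.38 and 0.55 ± 0.38. The latter became −0.02 without the 3 libraries that lay apart. Acaca, the acetyl-CoA carboxylase, had the same low and high libraries over a range of 89.8 to 299 CPM, and 64.3% of its longest transcript has a near-identical copy in 1 other gene. Acly, which supplies cytosolic acetyl-CoA from citrate, ranged over 215 to 441 CPM and was called lower with rhWnt3a without vehicle 3 (log2 fold change −0.74, adjusted p 0.0275) and without the 3 libraries that lay apart (−0.70), and in the OSMI group against vehicle also without these 3 (−0.60). Fads1 ranged over 382 to 506 CPM and Fads2 over 120.0 to 211 CPM. Fads2 with rhWnt3a lay below vehicle in all libraries and with OSMI above rhWnt3a in all libraries, with log2 fold changes of −0.44 ± 0.16 and 0.39 ± 0.16, neither called.

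The role groups differed in how their libraries were spread. The mean of log2 CPM over the 7 mevalonate members was 5.55, 5.20 and 4.90 in vehicle 1 to 3, 4.48, 4.78 and 4.36 in rhWnt3a 1 to 3 and 4.54, 4.63 and 4.32 in rhWnt3a with OSMI 1 to 3. Every vehicle library lay above every treated library there, and the same held for the 8 lanosterol to cholesterol members, with 6.09 to 6.53 in vehicle, 5.60 to 5.92 with rhWnt3a and 5.31 to 5.79 with rhWnt3a and OSMI. It did not hold for the other role groups. For the 3 squalene members vehicle 3 (6.72) lay just below rhWnt3a 2 (6.74), and for the 4 of sterol sensing or carriage it lay (6.82) just below rhWnt3a with OSMI 3 (6.84). The 9 fatty acid members departed further. Their means were 7.87, 7.72 and 6.95 in vehicle 1 to 3, 7.18, 6.76 and 7.15 in rhWnt3a 1 to 3 and 6.97, 6.99 and 7.42 in rhWnt3a with OSMI 1 to 3, so that vehicle 3 lay among the treated libraries. These means describe the libraries and were given no test.

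**Figure D5:**
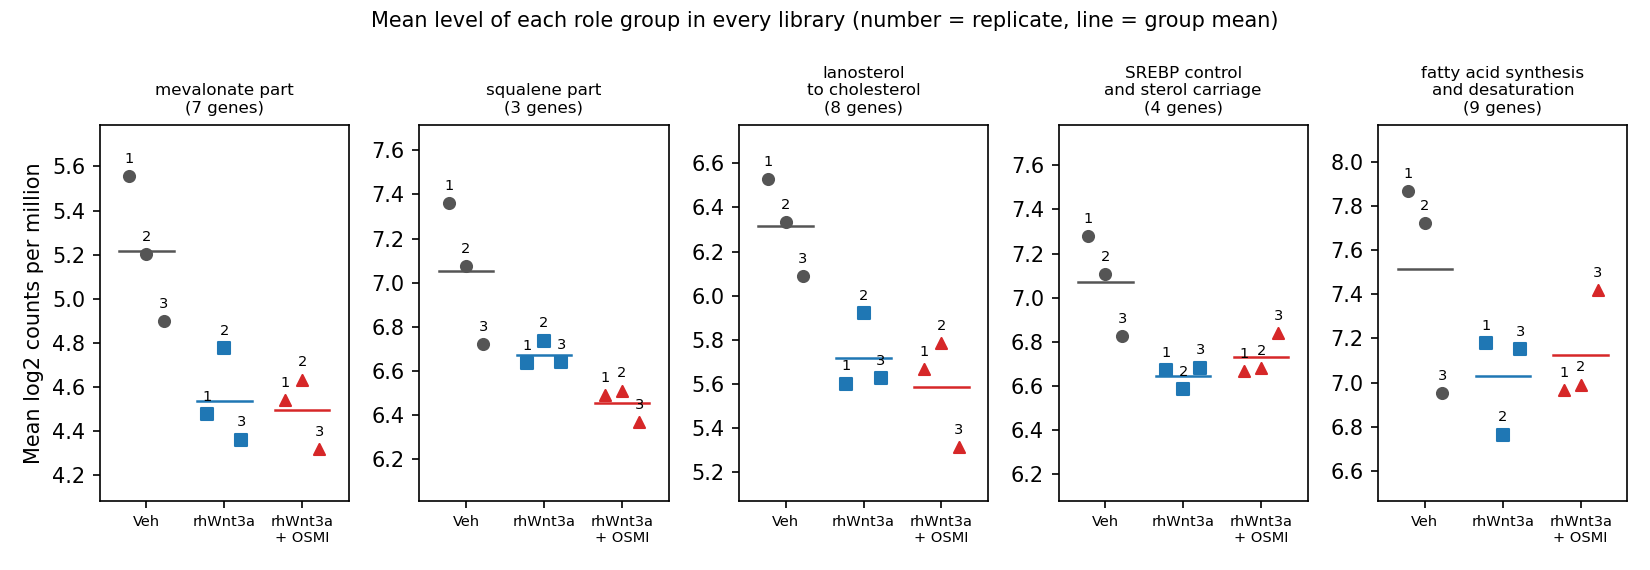
Mean log2 CPM over the members of each role group (vertical axis, panels with the same span) in each of the 9 libraries, with the replicate number above each point and a line at each group mean. Vehicle lies above both treated groups in the mevalonate panel (4.90 to 5.55 against 4.32 to 4.78), whereas in the fatty acid panel vehicle 3 at 6.95 lies among the treated libraries.

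Other genes of sterol and fatty acid handling were read from lists of related steps. Of 4 tested further enzymes of sterol synthesis, 8 genes of SREBP processing and sterol uptake, and 7 genes that use isoprenoids, edgeR called 0 in any comparison with all libraries, the filter on low counts, TMM and no correction. At an unadjusted p under 0.05 with the fold threshold, 1 sterol enzyme was lower with rhWnt3a, and DESeq2 called 0 of these 4 in any comparison. For SREBP processing and uptake the unadjusted counts were 1 lower with rhWnt3a, 2 higher and 1 lower between the treated groups, and 1 lower between the OSMI and vehicle groups, where DESeq2 called 0, 1 higher and 1 lower, and 1 lower. For the isoprenoid list both counts were 0 in each comparison. Without the 3 libraries that lay apart, 3 of the sterol enzymes and 1 gene of the second list were called lower in both comparisons with vehicle, where 11.4% and 15.7% of all tested genes were. With the correction for gene length 1 sterol enzyme was called lower in the OSMI group against vehicle, as were 10.9% of all tested genes.

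Of the 6 tested genes of the LXR response and of sterol efflux or storage, 1 was called lower with rhWnt3a, 2 in the OSMI group against rhWnt3a and 3 against vehicle. Nr1h3, which encodes the oxysterol receptor LXRα, had 18.0, 18.4 and 19.1 CPM in vehicle 1 to 3, 6.39, 6.03 and 5.56 in rhWnt3a 1 to 3 and 5.02, 5.28 and 4.72 in rhWnt3a with OSMI 1 to 3. Both treated groups lay far below vehicle, with log2 fold changes of −1.62 ± 0.14 (SE; adjusted p = 0.000113) with rhWnt3a and −1.88 ± 0.14 (SE; adjusted p = 4.2e-05) with rhWnt3a and OSMI. Abca1, the exporter of cholesterol to apolipoproteins, had 22.4, 22.5 and 13.8 CPM in vehicle 1 to 3, 32.5, 18.0 and 34.9 in rhWnt3a 1 to 3 and 5.02, 3.62 and 10.3 in rhWnt3a with OSMI 1 to 3. With rhWnt3a against vehicle its log2 fold change of 0.54 ± 0.37 (SE; adjusted p = 0.519) was not called with all libraries. Without the 3 libraries that lay apart it was called higher there (0.55). The OSMI libraries lay below all others, and the log2 fold change was −2.17 ± 0.40 (SE; adjusted p = 0.0160) against rhWnt3a and −1.63 ± 0.40 (SE; adjusted p = 0.0215) against vehicle. The first of these calls was lost without rhWnt3a 1, rhWnt3a 3, rhWnt3a with OSMI 1 or rhWnt3a with OSMI 2 (log2 fold changes −2.04 to −1.85, adjusted p 0.0548 to 0.0806) and the second without vehicle 1, vehicle 2, rhWnt3a with OSMI 1 or rhWnt3a with OSMI 2 (log2 fold changes −1.49 to −1.30, adjusted p 0.0763 to 0.0893). Lpcat3, which places polyunsaturated acyl chains in phospholipids, had log2 fold changes of −0.76 ± 0.16 (SE; adjusted p = 0.0259) against rhWnt3a and −0.88 ± 0.16 (SE; adjusted p = 0.00456) against vehicle, the former lost without vehicle 2, rhWnt3a 1, rhWnt3a 2, rhWnt3a 3, rhWnt3a with OSMI 1 or rhWnt3a with OSMI 2 (log2 fold changes −0.83 to −0.73, adjusted p 0.0534 to 0.0976).

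Of the 15 tested further genes of fatty acid synthesis, elongation and activation, Elovl7 was called lower with rhWnt3a (−1.63 ± 0.21, adjusted p = 0.00109) and with rhWnt3a and OSMI (−1.51 ± 0.21, adjusted p = 0.00134). DESeq2 called 1 of the 15 lower with rhWnt3a and 1 higher between the treated groups. Between the OSMI and vehicle groups it called 1 higher and 2 lower. At an unadjusted p under 0.05 with the fold threshold only the first count differed, at 2 lower. Others of this list were called lower against vehicle with the correction for gene length or without the 3 libraries that lay apart. Acsl1, an acyl-CoA synthetase, was called higher with rhWnt3a and OSMI than with vehicle (0.53 ± 0.13, adjusted p = 0.0213), a call lost without vehicle 1, vehicle 2, rhWnt3a with OSMI 1 or rhWnt3a with OSMI 2 (log2 fold changes 0.53 to 0.57, adjusted p 0.0528 to 0.0661) and also with a correction for gene length, where the value was 0.29. This call was lost as well in edgeR with no filter beyond 1 count (0.52, adjusted p 0.0666). Between the treated groups edgeR did not call Acsl1 (0.51 ± 0.13, adjusted p = 0.0527), whereas DESeq2 called it higher (0.52). Among 6 genes of glycerolipid synthesis Gpam, which attaches the first acyl chain to glycerol phosphate, had 55.5, 61.0 and 44.7 CPM in vehicle 1 to 3, 118, 69.4 and 115 in rhWnt3a 1 to 3 and 106, 102 and 125 in rhWnt3a with OSMI 1 to 3. Its log2 fold change was 0.91 ± 0.21 (SE; adjusted p = 0.0242) with rhWnt3a and 1.05 ± 0.21 (SE; adjusted p = 0.00927) with rhWnt3a and OSMI, the opposite direction from the called members. The former call was lost without vehicle 1, vehicle 3, rhWnt3a 1 or rhWnt3a 3 (log2 fold changes 0.80 to 0.93, adjusted p 0.0644 to 0.103). Lpin2 was called higher (0.73 ± 0.16, adjusted p = 0.0152) and Agpat2 lower (−0.93 ± 0.23, adjusted p = 0.0213) with rhWnt3a and OSMI than with vehicle. The Lpin2 call was lost without vehicle 1 (log2 fold change 0.77, adjusted p 0.0509) and with a correction for gene length (0.44), and that of Agpat2 without vehicle 1, vehicle 2 or rhWnt3a with OSMI 1 (log2 fold changes −0.94 to −0.84, adjusted p 0.0585 to 0.0868). With rhWnt3a against vehicle, edgeR with all libraries did not call Agpat2 (−0.72 ± 0.22, adjusted p = 0.0828). DESeq2 (−0.74) and edgeR with no filter beyond 1 count (−0.74) called it lower there. The correction for gene length (−0.72) and the fit without the 3 libraries that lay apart (−0.93) did so too. Of 11 tested genes of fatty acid oxidation only Pdk4, a kinase that restrains pyruvate oxidation, was called by edgeR with all libraries, the filter on low counts, TMM and no correction, higher with rhWnt3a and OSMI than with vehicle (0.72 ± 0.14, adjusted p = 0.00878). Between the treated groups DESeq2 and the correction for gene length also called it higher (both 0.55).

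Markers of other mesenchymal fates moved in the same comparisons. Of 8 adipocyte markers 4 passed the filter, and 3 of these, Fabp4 and Lpl among them, were called lower in both comparisons with vehicle. Between the treated groups 1 of the 3, neither Fabp4 nor Lpl, was called higher with OSMI (0.63 ± 0.14, adjusted p = 0.0374), and not without vehicle 2, rhWnt3a 1, rhWnt3a 2, rhWnt3a 3, rhWnt3a with OSMI 1 or rhWnt3a with OSMI 2 (log2 fold changes 0.59 to 0.70, adjusted p 0.0723 to 0.143). In that comparison DESeq2 called 1 of the 4 higher and 1 lower, as did an unadjusted p under 0.05 with the fold threshold. The lowest log2 fold change of the 4 was −1.06 there. Lpl, with at most 26 counts, was not called with rhWnt3a without vehicle 1 or rhWnt3a 3 (log2 fold changes −2.37 to −2.23, adjusted p 0.0609 to 0.0736), nor with rhWnt3a and OSMI without vehicle 1, vehicle 3, rhWnt3a with OSMI 1, rhWnt3a with OSMI 2 or rhWnt3a with OSMI 3 (log2 fold changes −2.02 to −1.51, adjusted p 0.0544 to 0.116). The list summed to 65.0, 73.3 and 83.2 CPM in vehicle 1 to 3, 33.0, 43.8 and 37.0 in rhWnt3a 1 to 3 and 45.0, 42.1 and 42.8 in rhWnt3a with OSMI 1 to 3. The most abundant was Cebpa, which was not called, while Adipoq had at most 3 counts, Plin1 at most 1 and Cidec 0 in every library. Of 6 chondrocyte markers 4 passed and all 4 (Sox9, Col2a1, Cnmd and Ucma) were called lower in both comparisons, with Sox9 the most abundant. Sox9 was not called lower with rhWnt3a without vehicle 1, vehicle 2, rhWnt3a 1, rhWnt3a 2 or rhWnt3a 3 (log2 fold changes −1.06 to −0.86, adjusted p 0.0649 to 0.0960), nor with rhWnt3a and OSMI without rhWnt3a with OSMI 2 (log2 fold change −0.995, adjusted p 0.0521). The list summed to 515, 561 and 421 CPM in vehicle 1 to 3, 120.2, 93.5 and 118 in rhWnt3a 1 to 3 and 79.0, 84.6 and 128 in rhWnt3a with OSMI 1 to 3, while Matn3 had at most 2 counts. The part of these marker shifts in the members' values was not tested.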

How the data were processed

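Poly-A RNA was measured in 9 libraries of ST2 cells, 3 per group, which were grouped by their titles. The members and the other gene lists were chosen with earlier results of these data known. The authors deposited whole-number counts of reads per gene. The submitters' processing notes name CASAVA, fastp, HISAT2 2.0.5, featureCounts 1.5.0-p3 and mm10, whereas annotation and strand setting are not given in the sources used here, so reads of overlapping genes cannot be told apart. The deposited FPKM values are counts per gene length and library total, and they were used only to compare levels between genes. The authors' 15 comparison columns hold group means, log2 fold changes, p-values and adjusted p-values and were not used. Gene lengths were taken from the table.

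The tests used edgeR 4.0.16 under R 4.3.3. The function filterByExpr, set to a minimum count of 10 and a minimum total of 15, passed 14004 genes. TMM gave the scaling, 1 glmQLFit covered all 9 libraries in their 3 groups, and pairs of groups were compared by two-sided glmQLFTest with Benjamini-Hochberg adjustment over the tested genes. Calls needed both an adjusted p below 0.05 and more than 0.5 of log2 change up or down. The common dispersion was 0.0452, so for genes with many counts the spread between libraries set the precision, whereas for genes with few counts counting error adds to it. With 3 libraries against 3 an exact permutation test cannot go below p = 0.1 and was not used. CPM were computed with TMM-scaled totals, and log2 CPM with a prior count of 2. Total counts were 16417002, 16591815 and 17583945 in vehicle 1 to 3, 16811833, 17393439 and 17061946 in rhWnt3a 1 to 3, and 16135898, 17022987 and 16713202 in rhWnt3a with OSMI 1 to 3. Members called in any comparison are given with each library's value and the others by their range, except Ebp, Fasn and Scd2, chosen for full values after these were seen, and from the other lists of lipid genes those called with all libraries are named, at most 6 per list, whereas not every called cell type marker is named.

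Alternatives were DESeq2 1.42.0, other scalings, filters and thresholds, the 6 libraries of a comparison alone, the replicate number as a block, a correction for gene length, and libraries left out. A correction for length and GC content, with GC values for 99.9% of tested genes, was chosen after seeing the data. Near-identical copies were sought with blastn 2.17.0 among GENCODE M21 transcripts (at least 97% identity over 100 bases), and exon overlap was taken from the same annotation. Promoter windows were read from RefSeq sequences of GRCm38.p6, the assembly of mm10. Genes of the other lists that were not called are given as counts only.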

Additional observations from a re-analysis of the deposited data

How the results depend on the processing

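Across the 24 alternatives the median log2 fold change of the members was negative in both comparisons with vehicle and no member was called higher there. Single-gene results had the same direction and side of the threshold in 1187 cases, lost their call in 188, gained one in 85 and reversed in 1, Fasn between the OSMI and vehicle groups, at −0.0203 without the 3 libraries that lie apart. The cause of these shifts was not tested, save for 2 changes by construction. Stricter or looser thresholds change counts, and leaving out the 3 libraries that lie apart narrows the spread between libraries.

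Members called lower with rhWnt3a (10) were 16 with no filter beyond 1 count, 16 at an unadjusted p, 4 beyond a log2 fold change of 1, 5 with the replicate block, 19 without the 3 libraries that lie apart (median −0.83), and 2 to 16 with 1 library left out. All tested genes called higher or lower were then 2155 at an unadjusted p, 796 beyond 1 and 809 with the block. They were 2557 without the 3 libraries and 716 to 1506 with 1 left out. Of 27560 genes tested with no filter beyond 1 count, 492 were called higher and 1060 lower. With the filter on low counts these were 409 and 821 of 14004.

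Between the treated groups (0 members) the lower calls were 2 with DESeq2, 2 with no filter, 2 at an unadjusted p, 1 with the length correction, 2 with length and GC correction, 1 with block, length and GC, 2 without the 3 libraries (and 1 higher), and 0 to 1 with 1 left out. All tested genes called higher or lower were 1297 with DESeq2, 1481 with no filter and 2271 at an unadjusted p. The counts were 1004 with the length correction, 1063 with length and GC correction and 1789 without the 3 libraries. They were 345 with only the 6 libraries, 380 beyond 1, 233 with the block and 203 to 764 with 1 left out. With block, length and GC, 159 of 14004 tested genes were called higher and 436 lower.

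Between the OSMI and vehicle groups (14 members) the lower calls were 8 with only the 6 libraries, 7 beyond 1, 8 with the block, 23 without the 3 libraries, and 5 to 19 with 1 left out (median −0.77 to −0.42). All tested genes called higher or lower were 3186 at an unadjusted p, 1118 beyond 1 and 1297 with the block. They were 3351 without the 3 libraries and 1218 to 2328 with 1 left out. With only the 6 libraries, 705 of 13601 tested genes were called higher and 1023 lower, against 678 and 1308 of 14004 with all libraries. With total counts in place of TMM the higher and lower calls were 957 and 1179 here (678 and 1308 with TMM) and 329 and 353 between the treated groups (237 and 427).

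The replicate numbers showed no clear pairing for a block to use. Of 9 pairs of libraries with the same number 3 had a correlation of deviations above 0.1 (−0.49 to 0.44), and 0 libraries were closest to their own number in both other groups. The deviations include the libraries that lie apart, which do not share a number (correlation 0.67 between vehicle 3 and rhWnt3a 2). A pairing by number could therefore have been hidden, and why calls were lost with the block was not tested.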
